A study of Mus musculus with 4 samples.

Results

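The collagen and laminin genes build the fibers and sheets that hold a tissue together, and their transcripts were followed here in fetal mouse livers. Members were taken by name, as every gene with a symbol made of Col, a number, the letter a and a number, or of Lama, Lamb or Lamc and a number, and each was read by its brightest array probe, the one with the highest mean log2 intensity. In all, 55 of the 22909 named genes of the array were members. They comprised 11 fibrillar collagens, 8 basement membrane collagens, 25 other collagens and 11 laminins. Livers were collected at 14.5 days post coitum (dpc), and RNA of each group was hybridized to 2 single-colour arrays. The CD group comprised fetuses of C57BL/6J dams that ate a control diet (CD) with 4.3% of energy as fat during gestation, and the HFD group comprised fetuses of C57BL/6J dams that ate a high-fat diet (HFD) with 60% of energy as fat over the same time. The diet of the dam was the only treatment. The labels number the arrays of a group as replicates, but the number of fetuses and dams behind each array is not given, so p-values measure only the spread between these 4 samples.

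Collagen chains wind around each other into a triple helix inside the cell and are then secreted, trimmed and cross-linked. Fibrillar collagens form the tensile fibers of connective tissue and cartilage, whereas collagen IV and the laminins, trimers of an alpha, a beta and a gamma chain, form the meshwork of basement membranes. In the liver, these proteins are found mainly in the capsule, the portal tracts and the walls of vessels, and stellate cells and portal fibroblasts are known as major sources of fibrillar collagen. In a bulk RNA sample, fewer cells of a type and less RNA per cell cannot be told apart.

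The level of a gene on an array is given as log2 intensity minus the 75th percentile of that array, and since each gene has its own probe, levels are compared between arrays and not between genes. The median intensity of the 4 arrays lay between 70.2 and 120.5, and 65.4% to 70.0% of spots were well above background. All 10 hepatocyte markers, albumin (Alb) and alpha-fetoprotein (Afp) among them, stood well above background on each of the 4 arrays. Not every sample matched its label, however. All 4 samples are labelled female. Xist, the RNA that coats the inactive X chromosome, was well above background on CD 2 and HFD 2 (levels of -0.65 and -0.74) and not on CD 1 and HFD 1 (-8.29 and -6.84). The 4 transcripts of the Y chromosome examined, Ddx3y, Eif2s3y, Kdm5d and Uty, were well above background on CD 1 and HFD 1 and not on CD 2 and HFD 2. The libraries labelled CD 1 and HFD 1 therefore went against their label, if it refers to the fetuses and not to the dams, and diet differences are also given within the pair with Y transcripts (HFD 1 minus CD 1) and within the pair with Xist (HFD 2 minus CD 2), each with 1 array per diet and no test.

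Nearly all members were measurable. Of the 55 members, 50 stood well above background on each of the 4 arrays, and 51 passed the filters on dim and variable probes and were tested. Col10a1, the collagen of hypertrophic cartilage, and Col4a3 and Col4a4, chains of the collagen IV of kidney and lung, did not stand well above background anywhere and were left out as dim. Col5a3, a minor fibrillar chain, was left out because it varied too much within each group (coefficient of variation, CV, above 50%), its levels being -1.03 and -2.69 in CD and -2.61 and -1.03 in HFD. Col15a1 was well above background on 2 arrays and Col28a1 on 1, and both passed the filters.

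0 of the 51 tested members reached an unadjusted p under 0.05 together with a 2-fold difference between the diets, the cutoffs used for calls, whereas 0.764% of all 18192 named genes tested did. Only Lama1 and Col2a1 had an unadjusted p under 0.05 by limma, a share to be set beside 2.84% of all named genes tested. After Benjamini-Hochberg adjustment over all probes tested, the smallest adjusted p of a member by limma was 1.00. The median difference, HFD minus CD, was -0.08 on the log2 scale over the members and 0.04 over all named genes tested. By direction, 20 members (with 10482 of all named genes tested) were nominally higher and 31 nominally lower in the HFD group, and quantile normalization moved this split to 14 and 37. Both HFD arrays were above both CD arrays for 2 members (3.92%, with 23.0% over all named genes tested) and below them for 11 members (21.6%, with 10.1% over all). With 2 arrays per group, an exact permutation test of a single gene cannot fall below p = 0.333.

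**Figure D1:**
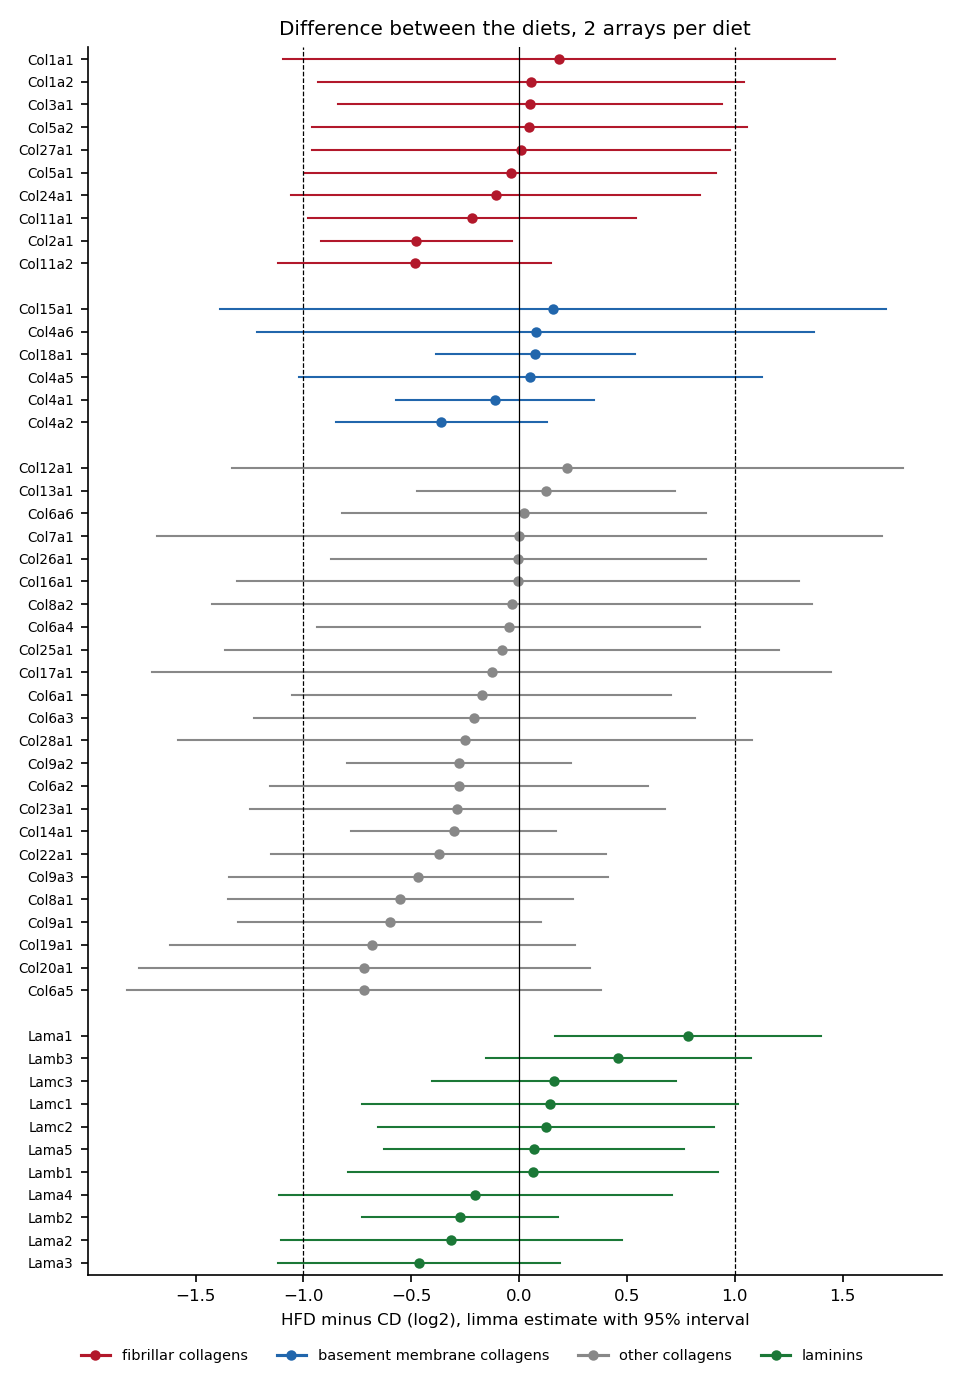
Difference between the diets for the 51 tested genes, HFD minus CD on the log2 scale, as the limma estimate (point) with its 95% interval (line), 2 arrays per diet, with dashed lines at a 2-fold difference. The estimates run from -0.72 (Col20a1 and Col6a5) to 0.78 (Lama1), and the intervals of Col2a1 and Lama1 leave out 0.

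The precision differed widely between members. The standard error of the difference ran from 0.17 to 0.63, with a median of 0.33 for the members and 0.20 for all named genes tested. For 19 of the 51 tested members, the whole 95% interval lay within a 2-fold difference, and for the other 32 the interval reached past 2-fold in at least 1 direction. The wide intervals came with a gap between the CD arrays. The level was higher on CD 1 than on CD 2 for 46 of 51 members (90.2%, with 44.5% of all named genes tested), with a median gap of 0.79, and the gap reached 2-fold for 11 members. Between the HFD arrays, the median gap was 0.16, and it reached 2-fold for 2 members. Regardless of sign, the median gap of the members was 0.83 between the CD arrays and 0.25 between the HFD arrays. Over all named genes tested, these medians were 0.32 and 0.10, and 1246 and 355 of the 18192 genes reached 2-fold.

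**Figure D2:**
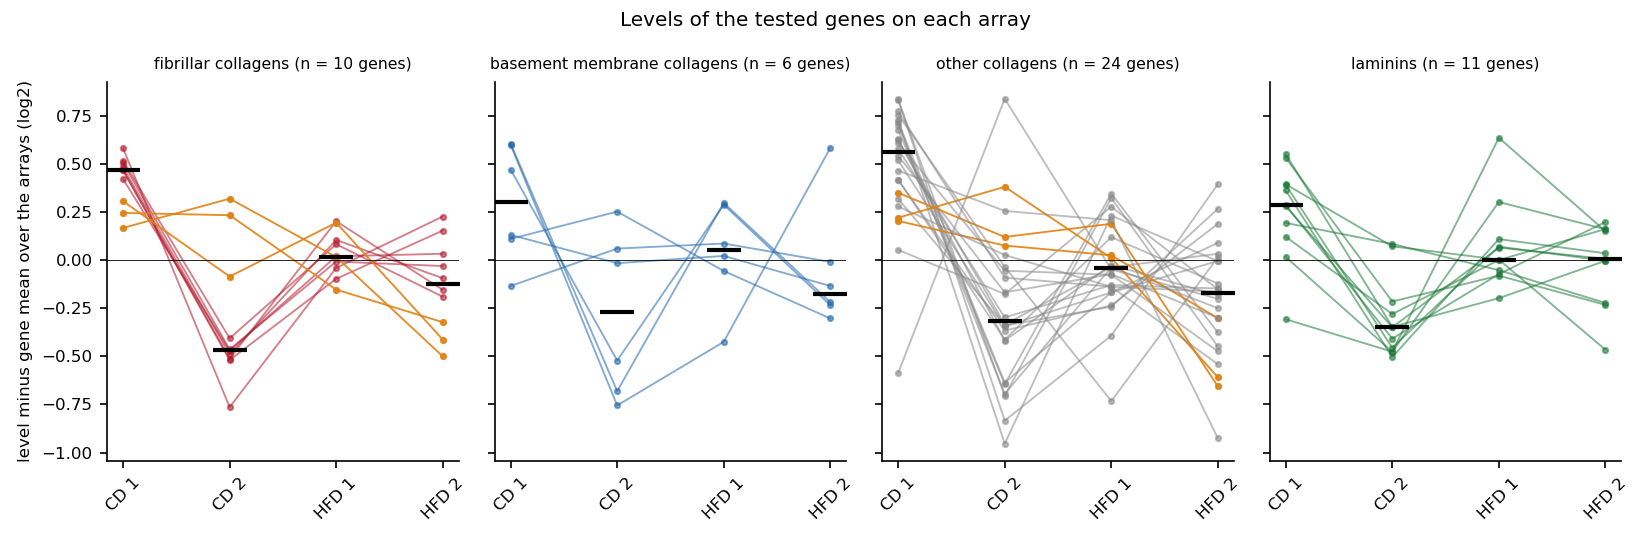
Level of each tested gene on the 4 arrays, as its log2 level minus its own mean over the arrays, in 4 panels by gene group, with 1 line per gene, a black bar at the median of the group and the 6 cartilage collagens in orange. The medians of the fibrillar collagens sit at 0.47 on CD 1 and -0.47 on CD 2, with the HFD arrays between at 0.02 and -0.12.

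The fibrillar collagens with the brightest probes were those of types I and III, the main fibers of connective tissue. Col1a1, which encodes the alpha1 chain of type I collagen, read 6.82 and 5.48 on CD 1 and CD 2, against 6.20 and 6.47 on HFD 1 and HFD 2. Col1a2, its partner chain, was at 7.52 and 6.54 in the CD livers, and the HFD livers gave 6.96 and 7.21. Col3a1, the single chain of type III collagen, stood at 6.57 and 5.68 in CD and at 6.17 and 6.19 in HFD. All of these genes were highest on CD 1 and lowest on CD 2, and the HFD arrays lay between. The diet difference was 0.18 ± 0.48 (SE, n = 2 arrays per diet) for Col1a1, 0.05 ± 0.37 for Col1a2 and 0.05 ± 0.34 for Col3a1, whereas the gap between the CD arrays was 2.54-fold, 1.98-fold and 1.85-fold. Within the pair with Y transcripts the Col1a1 difference was -0.62, and within the pair with Xist it was 0.99. The same order of arrays held for the main chains of types I, III, V and VI. For all 8 of these genes tested (Col1a1, Col1a2, Col3a1, Col5a1, Col5a2, Col6a1, Col6a2 and Col6a3), a set put together after the values were seen, both HFD arrays lay between the CD arrays, which was so for 39.8% of all named genes tested. Without CD replicate 1 the 10 tested fibrillar collagens had a median difference of 0.47, which became -0.46 when CD replicate 2 was left out instead.

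The bases before the annotated start of Col1a2 and Col3a1 are shown because these genes had the same order of arrays, and those of Col9a2 and Col11a2 because they were lower on both HFD arrays. RefSeq windows on GRCm38.p6 were matched by symbol for 40 of the 55 members, and the 250 bases before the start are printed on the strand of the gene, which is the plus strand for all 4. The capitals mark the CCAAT box, the GC box GGGCGG and the TATA box TATAAA, searched on both strands, so that CCGCCC is the GC box on the other strand.
Col1a2, chr6:4505368-4505617: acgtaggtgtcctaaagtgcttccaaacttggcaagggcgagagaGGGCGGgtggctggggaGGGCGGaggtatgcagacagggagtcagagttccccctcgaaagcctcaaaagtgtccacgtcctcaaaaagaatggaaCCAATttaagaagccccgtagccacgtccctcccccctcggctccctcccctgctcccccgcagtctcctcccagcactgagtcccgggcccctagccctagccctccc
Col3a1, chr1:45311288-45311537: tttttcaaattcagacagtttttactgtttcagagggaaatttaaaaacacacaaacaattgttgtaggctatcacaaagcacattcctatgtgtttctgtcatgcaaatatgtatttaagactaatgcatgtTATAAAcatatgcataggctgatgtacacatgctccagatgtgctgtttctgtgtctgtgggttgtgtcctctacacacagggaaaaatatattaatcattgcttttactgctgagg
Col9a2, chr4:121039316-121039565: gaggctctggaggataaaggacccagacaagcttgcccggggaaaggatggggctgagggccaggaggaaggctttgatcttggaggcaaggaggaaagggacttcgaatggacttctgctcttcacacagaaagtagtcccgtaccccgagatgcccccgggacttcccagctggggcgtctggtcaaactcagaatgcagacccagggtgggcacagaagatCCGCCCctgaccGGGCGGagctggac
Col11a2, chr17:34038888-34039137: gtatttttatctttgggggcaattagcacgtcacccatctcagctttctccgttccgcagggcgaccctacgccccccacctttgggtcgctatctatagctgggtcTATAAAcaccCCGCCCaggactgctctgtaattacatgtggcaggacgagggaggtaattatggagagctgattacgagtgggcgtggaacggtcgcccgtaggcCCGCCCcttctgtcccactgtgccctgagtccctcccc
The Col1a2 window held 1 CCAAT and 2 GC boxes, the Col3a1 window 1 TATAAA, the Col9a2 window 2 GC boxes, and the Col11a2 window 2 GC boxes and 1 TATAAA, and none of these matches overlapped another. Among all 32851 windows of this length in the table, 33.8% held CCAAT, 32.7% a GC box and 12.4% TATAAA, and among the 44 windows of the matched members 31.8%, 54.5% and 11.4% did. A match describes only the letters of the window.

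The collagens of types II, IX and XI, here called the cartilage collagens, followed another order. This set of 6 genes was put together after the values were seen. It leaves out Col27a1, a further fibrillar collagen, which had a difference of 0.01 ± 0.37, with both HFD arrays between the CD arrays. Col2a1, the main fibrillar collagen of cartilage, read 1.65 and 1.64 on CD 1 and CD 2, against 1.25 and 1.08 on HFD 1 and HFD 2. Both HFD arrays lay below both CD arrays, with a difference of -0.48 ± 0.17 (SE, limma, unadjusted p = 0.0402, adjusted p = 1.00), which is 1.39-fold and under the 2-fold cutoff. Col11a2, whose chain is built into the same cartilage fibers, was at -3.50 and -3.35 in the CD livers, and the HFD livers gave -3.65 and -4.17, with a difference of -0.48 ± 0.24 (limma, unadjusted p = 0.103). For Col11a1, also a chain of type XI collagen, the CD arrays read 1.05 and 0.66 and the HFD arrays 0.94 and 0.33, so that the groups overlapped (difference of -0.22 ± 0.29).

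Type IX collagen, which sits on the surface of cartilage fibers, showed the same side, and its genes are named after their values were seen. Col9a1 stood at -0.52 and -0.36 in CD and at -0.73 and -1.35 in HFD. Col9a2 read 2.15 and 2.02 on CD 1 and CD 2, against 1.97 and 1.64 on HFD 1 and HFD 2. Col9a3 was at -1.66 and -1.89 in the CD livers, and the HFD livers gave -1.82 and -2.67. For these genes and the 3 genes of the preceding paragraph together, the gap between the CD arrays had a median size of 0.16, HFD 2 was the lowest array for all 6, and the difference between the diets ran from -0.60 to -0.22 with a median of -0.47. Both HFD arrays lay below both CD arrays for 4 of the 6 genes, and the groups overlapped for Col11a1 and Col9a3. The same held for 11 of all 51 tested members (21.6%) and for 10.1% of all named genes tested. Within the pair with Y transcripts the median of the 6 genes was -0.17, and within the pair with Xist it was -0.67. Without HFD replicate 2 the median of the 6 genes was -0.17, and Col11a1 turned to 0.08.

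Of 12 cartilage markers, 9 stood well above background on each array and 9 were tested, and their median difference was -0.49, with 8 nominally lower. Of these, 2 passed both cutoffs, with 0.764% of all named genes tested. The groups overlapped for 5 of the 9. Both HFD arrays lay below both CD arrays for 3 markers (with 10.1% of all named genes tested) and above them for 1 (with 23.0%). Matn1, a matrix protein of cartilage, stood at -3.32 and -3.91 in CD and at -5.08 and -5.24 in HFD (difference of -1.55 ± 0.26, limma, unadjusted p = 0.00257). Acan, the large proteoglycan of cartilage, read -1.5 and -0.94 on CD 1 and CD 2, against -2.01 and -2.78 on HFD 1 and HFD 2 (difference of -1.17 ± 0.35, limma, unadjusted p = 0.0245). For Matn1 and Acan, the groups did not overlap. The median of the 9 markers was -0.20 when CD replicate 1 was left out, -0.72 when CD replicate 2 was, -0.74 when HFD replicate 1 was and -0.25 when HFD replicate 2 was. The brightest marker probes were those of Sox5 and Sox6, transcription factors of cartilage and of other tissues, with differences of -0.05 and 0.31, and the summed signal of the 12 markers, which these probes dominate, was 44.6 to 45.3 times the 75th percentile on the CD arrays and 45.5 to 45.9 times on the HFD arrays. The part of cartilage RNA in the collagen values was not tested.

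**Figure D3:**
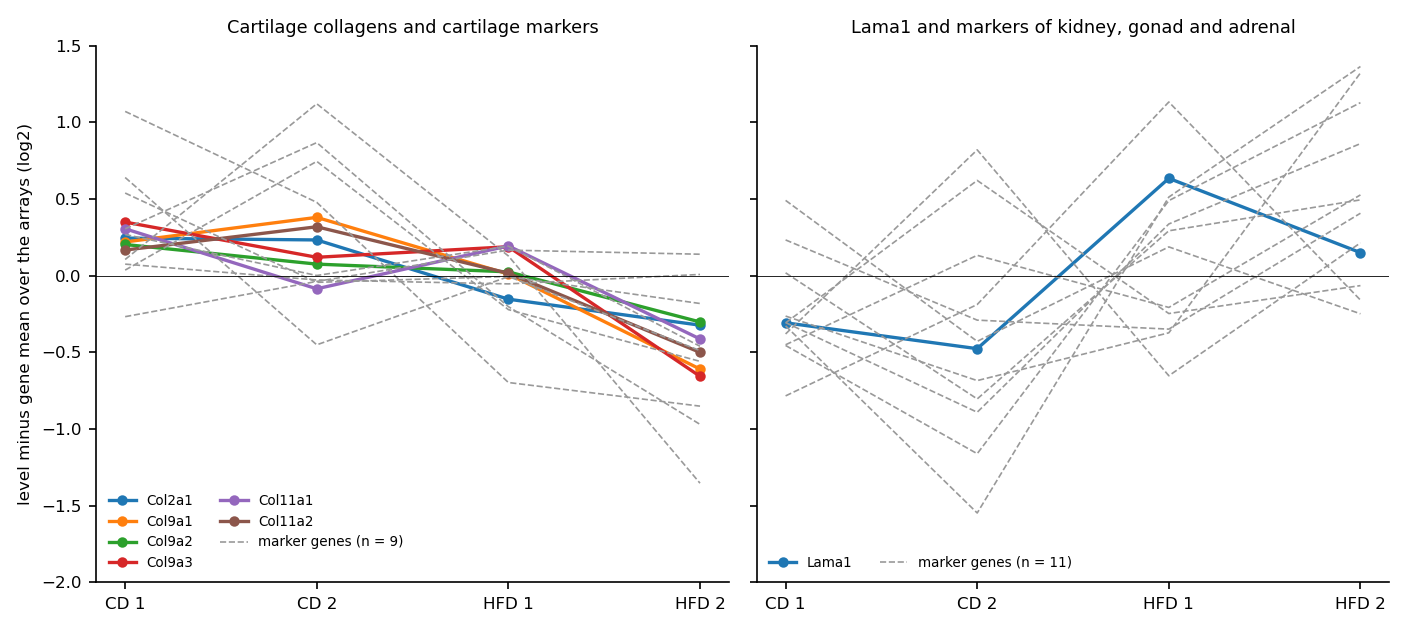
Left, levels of the 6 cartilage collagens (colours) and the 9 tested cartilage markers (grey dashes) on the 4 arrays, and right, Lama1 with the 11 tested markers of kidney, gonad and adrenal, each as log2 level minus the mean of the gene over the arrays. All 6 collagens are lowest on HFD 2, and Lama1 lies higher on either HFD array than on either CD array.

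The main collagen IV chains, which form the sheet of nearly every basement membrane, differed little between arrays. Col4a1 was at 3.14 and 3.0 in the CD livers, and the HFD livers gave 3.03 and 2.88, with a difference of -0.11 ± 0.17 and a 95% interval from -0.57 to 0.35. Col4a2, its neighbour in a head-to-head pair of genes, stood at 2.61 and 2.75 in CD and at 2.44 and 2.20 in HFD, with a difference of -0.36 ± 0.18 and an interval from -0.85 to 0.13. Both HFD arrays lay below both CD arrays for Col4a2, and the groups overlapped for Col4a1. Col18a1, which encodes the precursor of endostatin, read 4.24 and 4.43 on CD 1 and CD 2, against 4.46 and 4.36 on HFD 1 and HFD 2, with an interval from -0.38 to 0.54. For Col4a1, Col4a2 and Col18a1 the interval thus lay within a 2-fold difference.

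Col4a5 and Col4a6, the X-linked collagen IV pair, instead had the gap between the CD arrays. Col4a6 was at 0.09 and -1.20 in the CD livers, and the HFD livers gave -0.22 and -0.74, and Col4a5 stood at 0.26 and -0.73 in CD and at 0.08 and -0.44 in HFD. Both genes were lower on the array with Xist than on the array with Y transcripts in each group, by 0.52 within the HFD group. The direction was not particular to them, since 46 of 51 members were higher on CD 1 than on CD 2. Between the HFD arrays, 37 of 51 members were higher on HFD 1. The median gap of the members there was smaller than that of this pair, at 0.16, or 0.25 regardless of sign. The diet differences of Col4a6 and Col4a5 were 0.08 ± 0.49 and 0.05 ± 0.40. Over the 6 basement membrane collagens tested, the median difference was 0.06, and it was -0.02 when probes of a gene were averaged and -0.03 after normexp background correction.

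The other collagens form beaded microfilaments, link fibers to their surroundings or span the cell membrane. Of the 24 tested, 20 were nominally lower in the HFD group, with a median difference of -0.23. Over all 18192 named genes tested, 7710 were nominally lower, with a median of 0.04. Both HFD arrays lay between the CD arrays for 14 of the 24 genes (58.3%, with 39.8% over all). Col6a1, a chain of the microfilament collagen VI, read 5.09 and 4.23 on CD 1 and CD 2, against 4.40 and 4.57 on HFD 1 and HFD 2. Col6a3, the long chain of the same collagen, was at 4.14 and 3.09 in the CD livers, and the HFD livers gave 3.48 and 3.33. Col16a1, a fibril-associated collagen, stood at 4.37 and 2.97 in CD and at 3.63 and 3.70 in HFD. For all of these genes, CD 1 was highest, CD 2 was lowest and the HFD arrays lay between, with differences of -0.17 ± 0.33, -0.21 ± 0.39 and -0.01 ± 0.49. Leaving out CD replicate 1 turned the median of the 24 genes to 0.22, and leaving out CD replicate 2 made it -0.70.

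The widest differences of this group were those of Col6a5, Col20a1 and Col19a1. Col6a5, an additional chain of collagen VI, read -3.27 and -3.48 on CD 1 and CD 2, against -3.52 and -4.66 on HFD 1 and HFD 2. Col20a1 was at -2.20 and -2.99 in the CD livers, and the HFD livers gave -3.69 and -2.94, and Col19a1 stood at -4.0 and -4.86 in CD and at -4.91 and -5.31 in HFD. The groups did not overlap for Col6a5 and Col19a1 and overlapped for Col20a1. The differences were -0.72 ± 0.41 for Col6a5 (limma, unadjusted p = 0.149), -0.72 ± 0.39 for Col20a1 (unadjusted p = 0.134) and -0.68 ± 0.35 for Col19a1 (unadjusted p = 0.119). In fits that lacked 1 array, where the lone array of a diet is assumed to vary like the pair of the other diet, each passed both cutoffs once, namely Col6a5 without HFD replicate 1 (-1.29), Col20a1 without HFD replicate 2 (-1.09) and Col19a1 without CD replicate 2 (-1.11), with adjusted p of 1.00, 1.00 and 0.335 by limma. Col12a1, a fibril-associated collagen of tendon and other dense tissue, likewise passed them without CD replicate 1 (1.07, adjusted p = 0.222) and had a difference of 0.22 ± 0.59 over all 4 arrays.

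Among the laminins, Lama1 had the largest difference. Lama1 encodes the alpha1 chain, known from early embryonic basement membranes and those of kidney tubules and gonads. It read 2.03 and 1.86 on CD 1 and CD 2, against 2.97 and 2.48 on HFD 1 and HFD 2. Both HFD arrays lay above both CD arrays, with a difference of 0.78 ± 0.23 (SE, n = 2 arrays per diet, limma, unadjusted p = 0.023, adjusted p = 1.00), which is 1.72-fold, and a 95% interval from 0.17 to 1.40. It was 0.94 higher within the pair with Y transcripts and 0.63 higher within the pair with Xist. Without HFD replicate 2 the difference was 1.03 (limma, unadjusted p = 0.0307, adjusted p = 1.00), which passes both cutoffs, and without HFD replicate 1 it was 0.54 (unadjusted p = 0.225), both from fits in which the CD pair alone gave the spread.

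Most markers of gonad and adrenal differed in the same direction as Lama1. Of the 6 tested markers of gonad and adrenal, 5 were higher in the HFD group, as were 10482 of all 18192 named genes tested. Both cutoffs were passed by 2 of the 6, with 0.764% of all named genes tested. These were Cyp11a1, the first enzyme of steroid synthesis (difference of 1.87 ± 0.52), and Nr5a1, the steroidogenic factor 1 gene (1.20 ± 0.30). The summed signal of the 7 gonad and adrenal markers overlapped between the groups, however, at 33.5 to 50.7 times the 75th percentile on the CD arrays and 37.0 to 45 times on the HFD arrays, with Foxl2 and Cyp17a1 as the brightest probes. Of the 7 kidney markers, 5 were tested, with a median difference of 0.06 and a summed signal of 1.9 to 3.0 on the CD arrays and 2.7 to 3.3 on the HFD arrays. Six2 and Cdh16 had the brightest kidney probes, with a difference of -0.06 ± 0.37 for Six2, while Cdh16 failed the CV filter, at -1.57 and -3.24 in CD and at -0.87 and 0.26 in HFD. Slc12a1, a transporter of the kidney tubule, was not well above background on any array. The part of these organs in the Lama1 value was not tested. Of the 4 markers of parietal endoderm, a further tissue known for Lama1, 1 was higher and 3 were lower, led by Pth1r (-0.22 ± 0.22) and Thbd (-0.16 ± 0.17), and 0 passed the cutoffs.

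The common laminin chains followed the interstitial collagens. Lamb1 read 4.46 and 3.62 on CD 1 and CD 2, against 4.14 and 4.07 on HFD 1 and HFD 2, and Lamc1, which is part of most laminins, was at 3.67 and 2.80 in the CD livers, and the HFD livers gave 3.41 and 3.34. Both were highest on CD 1 and lowest on CD 2, with diet differences of 0.07 ± 0.32 and 0.14 ± 0.33. Among the chains of the main laminin of epithelia, Lamb3 stood at -1.60 and -2.10 in CD and at -1.32 and -1.46 in HFD, and Lama3 read -3.12 and -3.44 on CD 1 and CD 2, against -3.51 and -3.97 on HFD 1 and HFD 2. Lamb3 was thus higher on both HFD arrays (0.46 ± 0.23, limma, unadjusted p = 0.11) and Lama3 lower on both (-0.46 ± 0.25, unadjusted p = 0.124), while all 11 laminins were higher on CD 1 than on CD 2. The median difference of the laminins was 0.07.

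**Figure D4:**
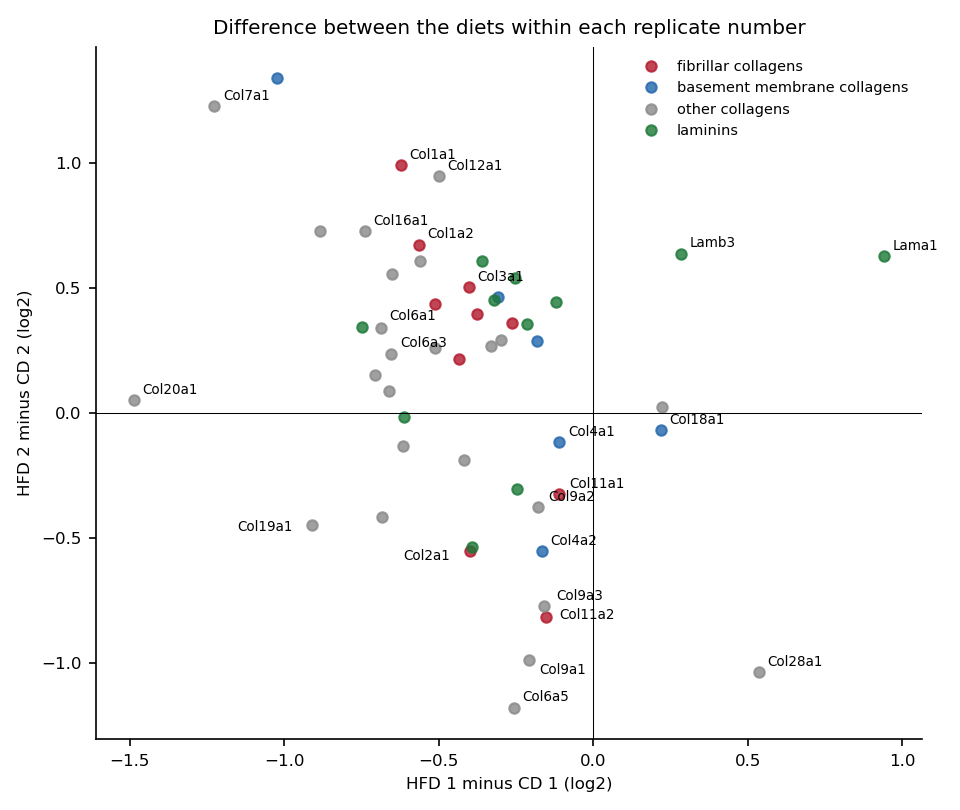
Diet difference of each tested gene within the arrays with Y transcripts (HFD 1 minus CD 1, horizontal) and within the arrays with Xist (HFD 2 minus CD 2, vertical), in log2 units with 1 array per diet in each and colours for the gene groups. Of 51 genes, 30 lie at upper left, 16 at lower left with all 6 cartilage collagens, and 3 at upper right with Lama1 and Lamb3.

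The differences within the pairs went opposite ways for 32 of 51 members (62.7%), with 57.9% of all named genes tested. Within the pair with Y transcripts, 46 of 51 members were lower on the HFD array, with a median of -0.39, and within the pair with Xist 18 were lower, with a median of 0.27. Over all named genes tested, the medians were 0.09 and 0.02. A lower level in the pair with Y transcripts together with a higher level in the pair with Xist was found for 30 members (58.8%, with 24.9% of all named genes tested), whereas 16 were lower and 3 were higher within both pairs. All 10 hepatocyte markers and all 8 erythroid markers were higher on CD 2 than on CD 1, with median gaps of -0.63 and -0.44 for CD 1 minus CD 2, and the summed hepatocyte signal was 1257 and 2006 times the 75th percentile on the CD arrays and 1529 and 1551 times on the HFD arrays. Alb, for example, was at 8.14 and 9.06 in the CD livers, and the HFD livers gave 8.53 and 8.54. The part of the cell makeup of the samples in the member values was not tested.

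Genes that process, bind or accompany collagens and laminins were taken from 8 lists. Of the 110 tested, 0 reached both cutoffs, a count to be set beside 0.764% of all named genes tested. In the list of collagen folding enzymes and chaperones, 9 of 19 genes were nominally higher, with a median difference of -0.01. Serpinh1, the chaperone of the collagen helix, stood at 5.06 and 4.2 in CD and at 4.67 and 4.70 in HFD, and Ppib, a proline isomerase, read 5.10 and 5.16 on CD 1 and CD 2, against 5.28 and 5.23 on HFD 1 and HFD 2. In the list of procollagen cleavage and cross-linking, 7 of 12 were nominally higher, with a median of 0.01, and Pcolce and Loxl2 had differences of 0.10 ± 0.32 and 0.13 ± 0.31. The gap between CD 1 and CD 2 had a median of 0.83 in the cleavage list and of 0.10 in the folding list, whose enzymes also serve other secreted proteins.

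The receptors and companions of the members also stayed under the cutoffs. Of 9 collagen receptors, 6 were nominally higher, and Ddr1 and Ddr2, kinases that collagen activates, had differences of 0.09 ± 0.38 and -0.05 ± 0.45. Of 7 laminin receptors, 3 were nominally higher, and Itgb1 and Dag1 had differences of 0.09 ± 0.17 and -0.02 ± 0.17. Among 17 other basement membrane genes, with Sparc (0.23 ± 0.25) and Agrn (0.09 ± 0.23) as the brightest, 11 were nominally higher. Among 19 other interstitial matrix genes, with Fn1 (-0.03 ± 0.19) and Dcn (0.06 ± 0.34) as the brightest, 7 were nominally higher and 1 had an unadjusted p under 0.05. This was elastin (Eln), named after its value was seen, at 0.33 and 0.21 in CD and at -0.45 and -0.68 in HFD (-0.83 ± 0.18, limma, unadjusted p = 0.00712). Of 14 matrix proteases and inhibitors 8 were nominally higher, with Timp2 (0.11 ± 0.53) and Timp3 (0.02 ± 0.21) as the brightest, and of 13 regulators of matrix synthesis 5 were, with Tgfb2 (0.36 ± 0.37) and Smad4 (-0.03 ± 0.18).

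**Figure D5:**
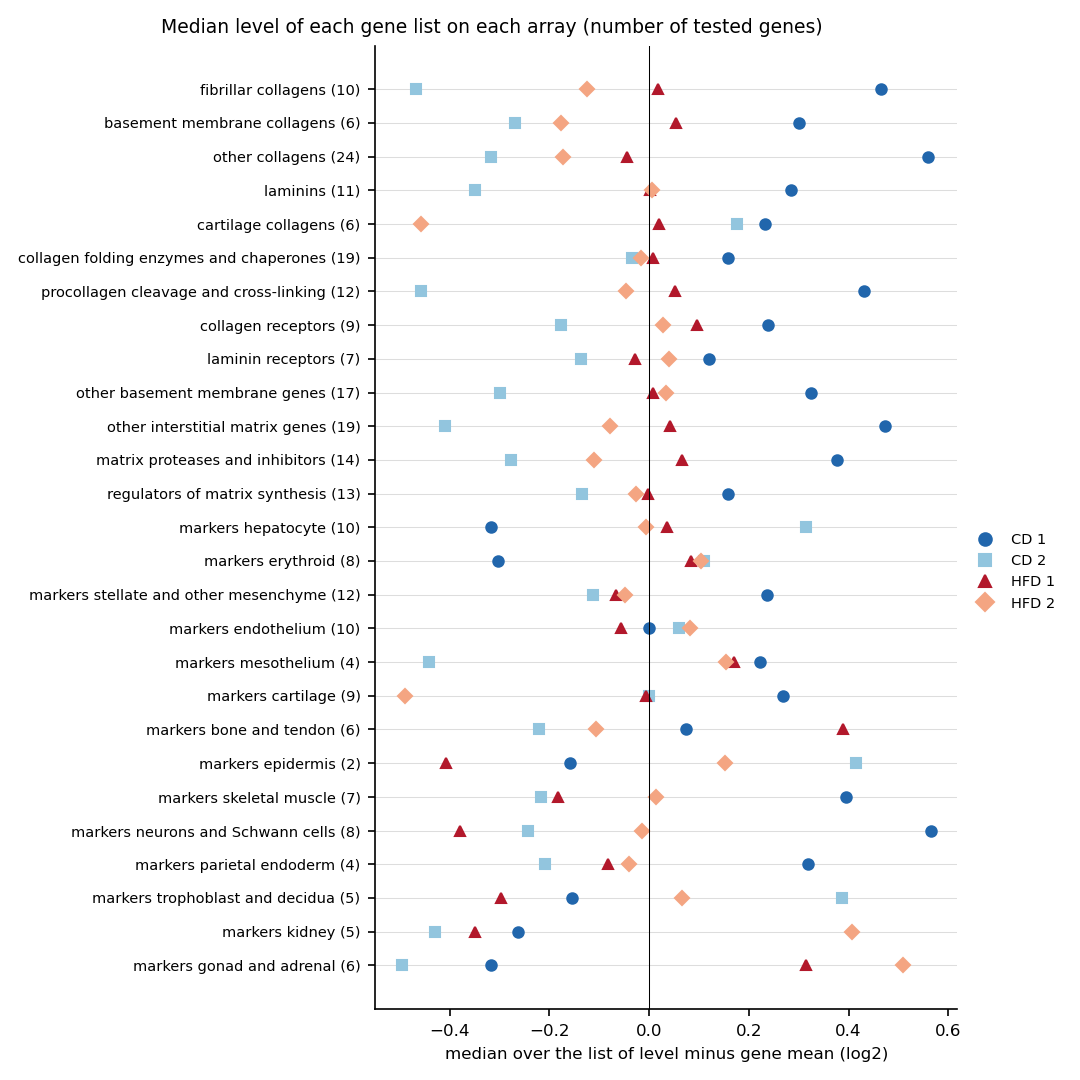
Median over each gene list of the log2 level minus the gene mean, on each of the 4 arrays (symbols), with the number of tested genes in brackets. Of the lists plotted, those of collagens, laminins and pathway genes lie highest on CD 1 and lowest on CD 2, apart from the cartilage collagens, which lie lowest on HFD 2, and the hepatocyte markers lie lowest on CD 1 and highest on CD 2.

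Markers of other cell types that could be in the samples were read in the same way. Stellate and other mesenchymal cells, the known sources of fibrillar collagen, had all 12 markers well above background on all 4 arrays, with a median gap of 0.34 between CD 1 and CD 2 and a median diet difference of -0.12. Their brightest probes were those of Acta2 (-0.22 ± 0.30) and Vim (-0.13 ± 0.18). Muscle and nerve were also read. The 7 skeletal muscle markers and the 8 markers of neurons and Schwann cells were all higher on CD 1 than on CD 2, with median gaps of 0.64 and 0.65 and median diet differences of -0.17 and -0.36, and Myh3, an embryonic muscle myosin and the brightest of its list with Tnnc2 (0.11 ± 0.36), was at 5.43 and 4.12 in the CD livers, and the HFD livers gave 4.48 and 5.16. Among the nerve markers, Stmn2 (-0.43 ± 0.39) had the brightest probe. The 10 endothelial markers had a median gap of -0.10 and a median difference of -0.06, led by Stab1 (-0.26 ± 0.17) and Stab2 (0.22 ± 0.16). The mesothelial, bone and tendon, and epidermal lists had 4, 6 and 2 genes tested and 0 past the cutoffs, with median differences of 0.21, 0.05 and -0.26. Their brightest tested probes were those of Wt1 (0.70 ± 0.42) and Msln (0.34 ± 0.30), of Scx (-0.27 ± 0.56) and Alpl (0.26 ± 0.18), and of Trp63 (-0.08 ± 0.20), while Krt5, brightest in the epidermal list, failed the CV filter. The erythroid list, led by Slc4a1 (0.27 ± 0.17) and Alas2 (0.30 ± 0.18), had a median difference of 0.17. Of 12 trophoblast and decidua markers, 11 were well above background on each array but only 5 were tested, with 0 past the cutoffs and Gcm1 (0.55 ± 0.48) as the brightest. The other 7, of which 6 failed the CV filter, were lower on both HFD arrays than on either CD array, with differences from -4.61 to -3.43 and no test. This order was found for 10.1% of all named genes tested, a set that does not hold these 7. The summed signal of the 12 was 66.8 and 76.8 times the 75th percentile in CD and 48.0 and 50.2 times in HFD, and Tpbpa, a marker of the placental junction, stood at 3.01 and 4.80 in CD and at 1.00 and -1.01 in HFD. The part of these cells in the member values was not tested.

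Of the members, 28 had over 1 probe. Of the 27 further tested probes of tested members, 18 had the sign of the brightest probe. For Col11a2, the further probe, well above background on 2 arrays, had a difference of 0.06, against -0.48 for the brightest. For Col1a1, the further probe read 6.39 and 5.24 on CD 1 and CD 2, against 5.94 and 6.13 on HFD 1 and HFD 2, the same order of arrays as the brightest. 0 of the 28 further probes tested passed both cutoffs, and 1 had an unadjusted p under 0.05 by limma. This was a probe of Col9a3, at -4.08 and -3.92 in CD and at -4.37 and -4.56 in HFD (difference of -0.47, unadjusted p = 0.0498), and it is named after its value was seen.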

How the data were processed

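Total RNA of 4 fetal liver samples was labeled with Cy3 and hybridized to an Agilent mouse array. The authors read the image with Feature Extraction 11.0.1.1 and deposited, for each spot, a processed intensity from which the software had removed background and spatial trends, with no scaling across arrays, its median brightness and background intensity, and flags that are scores of 0 or 1. They also deposited a table of normalized signal, in which each column is the intensity divided by 1 constant for the array.

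Spots flagged as outliers were left out, spots of a probe were averaged on the log2 scale and the 75th percentile of the array was subtracted. Probes that fell below the 20th percentile of an array (14980), as in the methods of the study, or with a CV over 50% in both groups (284) were left out of the 56596 usable probes. The CV was taken on linear values, whereas the study states log values for its CV filter, so the probes left out here are not those of the study, and no CV filter was an alternative. The remaining 41332 probes were fitted (HFD minus CD, no covariates) by lmFit and eBayes of limma 3.58.1, run under R 4.3.3, with cutoffs of an unadjusted p of 0.05 and a 2-fold difference. The study's methods do not name the test of the arrays. Transcripts were matched to RefSeq genes of GRCm38.p6, which gave 32994 of 56605 probes 1 of 22911 symbols. The 4 arrays shared 1 slide and 1 scan. Their number limits the precision. Values were summarized in Python 3.11.15 (pandas 2.3.3, numpy 2.4.6) and drawn with matplotlib 3.10.9, and the fit was tested on simulated data.

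Samples were grouped by their labels. Members, lists of pathway genes and cell type markers, and tests were chosen with earlier results of these data known. Named are the 3 members of each of the 4 groups with the highest mean signal, the 3 with the largest difference whose probe was detected on each array of the group with the higher level, every gene past the cutoffs, and the 2 brightest genes of each list. Some marker genes that this rule names are not reported here. Alternatives were quantile normalization, normexp background correction (offset of 50, on the median brightness), the deposited table, other filters, averaging the probes of a gene, the methods' t-test (also in Welch's form), a block for the replicate number, and leaving out each array.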

Additional observations from a re-analysis of the deposited data

Results flagged for a closer look

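Of the 51 tested members, 30 were lower on HFD 1 than on CD 1 and higher on HFD 2 than on CD 2. This was 58.8%, with 24.9% over all named genes tested, and the pairs are those with Y transcripts and with Xist. The count was marked because the diets differed in opposite directions within the pairs, each with 1 array per diet. The difference between the pairs was not tested. Both HFD arrays lay between the CD arrays for 29 members (56.9%, with 39.8% of all named genes tested). Where they do and CD 1 is the higher CD array, these signs follow from the gap between the CD arrays.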

How the results depend on the processing

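The number of members past both cutoffs was 0 under quantile normalization, normexp, the deposited table, other filters, the mean over all probes and both forms of the methods' t-test (equal variances and Welch's), and it was 1 to 2 when 1 array was left out. Fits that lacked a CD array took their spread from the HFD pair alone, so their count of members with an unadjusted p under 0.05 is not given. Over all tested probes, the gap had an SD of 0.34 between the HFD arrays and of 0.58 between the CD arrays. The number of members with an unadjusted p under 0.05 by limma was 2 in the main fit, and 0 passed after adjustment. It was 1 with no filter on dim probes (Col2a1 lost), 1 without HFD replicate 1 (Lama1 and Col2a1 both lost), 1 by the methods' test with equal variances (Lama1 lost) and 0 by Welch's form. With no CV filter it was 2, and the median difference of the members was -0.064. After normexp the number was 3 (Col9a1 gained). Without HFD replicate 2 the difference of Col2a1 was -0.39, against -0.48 over all 4 arrays. Leaving out each array in turn, the median difference ran from -0.48 to 0.34 for all members, from -0.46 to 0.47 for the fibrillar collagens, from -0.37 to 0.26 for the basement membrane collagens, from -0.70 to 0.22 for the other collagens and from -0.29 to 0.38 for the laminins. Replicate numbers are not stated to pair the samples, and the correlation of their deviations from the group means was -0.10. With the replicate number as a block, which also separates the arrays with Y transcripts from those with Xist, 0 members passed both cutoffs, and Lama1, Col19a1 and Col6a5, but not Col2a1, had an unadjusted p under 0.05. Over all named genes, 0.0934% (Welch's form) to 1.95% (without CD replicate 1) passed both cutoffs. The slide could not be run as a block, since there was 1.

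Some small differences of named members changed sign. Quantile normalization gave -0.021 for Col18a1, -0.042 for Col1a2, -0.042 for Col3a1 and -0.028 for Lamb1, normexp gave 0.013 for Col16a1, and averaging the probes of a gene gave -0.064 for Lamb1. Over the fits that lacked 1 array, the lowest and highest values were -0.49 and 0.86 for Col1a1, -0.44 and 0.55 for Col1a2, -0.39 and 0.50 for Col3a1, -0.52 and 0.084 for Col11a1, -0.56 and 0.72 for Col4a6, -0.021 and 0.17 for Col18a1, -0.70 and 0.69 for Col16a1, -0.60 and 0.26 for Col6a1, -0.73 and 0.31 for Col6a3, -0.36 and 0.49 for Lamb1, and -0.29 and 0.58 for Lamc1. For Col1a1, Col1a2, Col3a1, Lamb1 and Lamc1 the lowest value came without CD replicate 2 and the highest without CD replicate 1. The cause was not tested. In all, 20 values of named members under an alternative changed sign, 4 newly passed the cutoffs (each with an array left out) and 270 kept both direction and side.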
